A study of Mus musculus with 5 samples.

Results

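The 9 genes of innate sensing and of the handling of bacterial lipopolysaccharide (LPS) described here are Cd14, Tlr2, Tlr4, Tlr7, Ly86, Ly96, Cd180, Myd88 and Aoah, taken by their symbols from the count tables. They are 9 of 52542 genes in the tables, and all 9 were detected. The cells are immune cells of the brain of DM-hTAU mice, which express human tau with the K257T and P301S mutations under the natural tau promoter on a mixed BALBc-C57/BL6 background. All 5 libraries (AB5863, AB5864, AB5865, AB5867 and AB5876) are labelled as brain, age 9 months, aPDL1 treatment (an antibody that blocks the checkpoint ligand PD-L1) and selection for CD45+ CD11b+ cells. The study's methods describe a sort of CD45high CD11bhigh single cells, which are then measured by MARS-seq, a plate-based method that counts each captured mRNA 3' end by its unique molecular identifier (UMI). There is a single labelled group, so nothing here compares treatments. The study's text has the sort drawing on IgG2b and anti-PD-L1 mice while a legend names only the latter, and the labels carry a preparation protocol for other organs (thymi and small intestines). No source ties a library to a separate mouse, so the spread between libraries may be technical. The main tests below compare classes within libraries, with an estimate of spread that is shared across genes. Their p-values therefore do not measure how far each single gene varies between libraries.

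Toll-like receptors (TLRs) are pattern receptors of macrophages and microglia that bind microbial products and some products of damaged tissue. LPS is handed by CD14 to the complex of TLR4 with MD-2, the product of Ly96, and the adaptor MyD88 carries the signal of most TLRs toward NF-kB. RP105, the product of Cd180, is a TLR4-like surface protein that lacks the signalling domain and pairs with MD-1, the product of Ly86. TLR2 binds bacterial lipoproteins at the surface, TLR7 binds single-stranded RNA in endosomes, and acyloxyacyl hydrolase, the product of Aoah, inactivates LPS by removing fatty acyl chains.

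Of 1920 wells, 1900 held 1 cell and 20 were empty, and 825 cells with at least 500 UMIs were kept. The libraries held between 128201 and 549824 UMIs. Libraries AB5865 and AB5876 gave 285 and 314 of the kept cells, and the other 3 gave 68 to 87. No well name was shared between libraries. Cells were put in classes by the summed level of marker genes, and no member is a marker. The classes were microglia (213 cells), border macrophages with markers such as Mrc1, Pf4 and Stab1 (112), macrophages high in MHC class II without border markers (206), monocyte-gated (98), dendritic-gated (38) and neutrophils (31), while 122 cells met no gate and 5 were lymphocytes. The gates are thresholds on these same sums, which therefore describe the classes and are no independent support for them. The microglia list summed to 176 UMIs per 10000 in microglia and 35.2 in border macrophages, and the border list to 88.7 in border macrophages and 6.51 in microglia. The MHC class II list stood at 447 in MHC II macrophages, 463 in dendritic-gated, 356 in monocyte-gated cells, 244 in border macrophages and 94.3 in microglia. The gate of the MHC II macrophages asks for no macrophage marker, and their border list summed to 8.52. The dendritic gate rests largely on Cd209a (347 UMIs over all kept cells), since Flt3 had 14 and Zbtb46 10. The neutrophil list, by its gate, stood at 3350 in neutrophils and between 10.1 and 15.4 in the other 5 classes.

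Ly86 dominated the group. It gave 1911 of the 3333 UMIs of the 9 genes (57.3%), was found in 67.5% of cells and ranked 45 of 16856 detected genes by UMIs. These are 3' end counts, which do not scale with transcript length, although capture can still differ between genes. Summed over the 9 genes the level was 41.2 UMIs per 10000 in microglia (95% Poisson interval 38.8 to 43.8), 32.0 in border macrophages, 26.3 in MHC II macrophages, 23.0 in monocyte-gated cells, 14.7 in dendritic-gated cells and 5.97 in neutrophils (3.34 to 9.85). All such intervals cover counting error only.

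**Figure D1:**
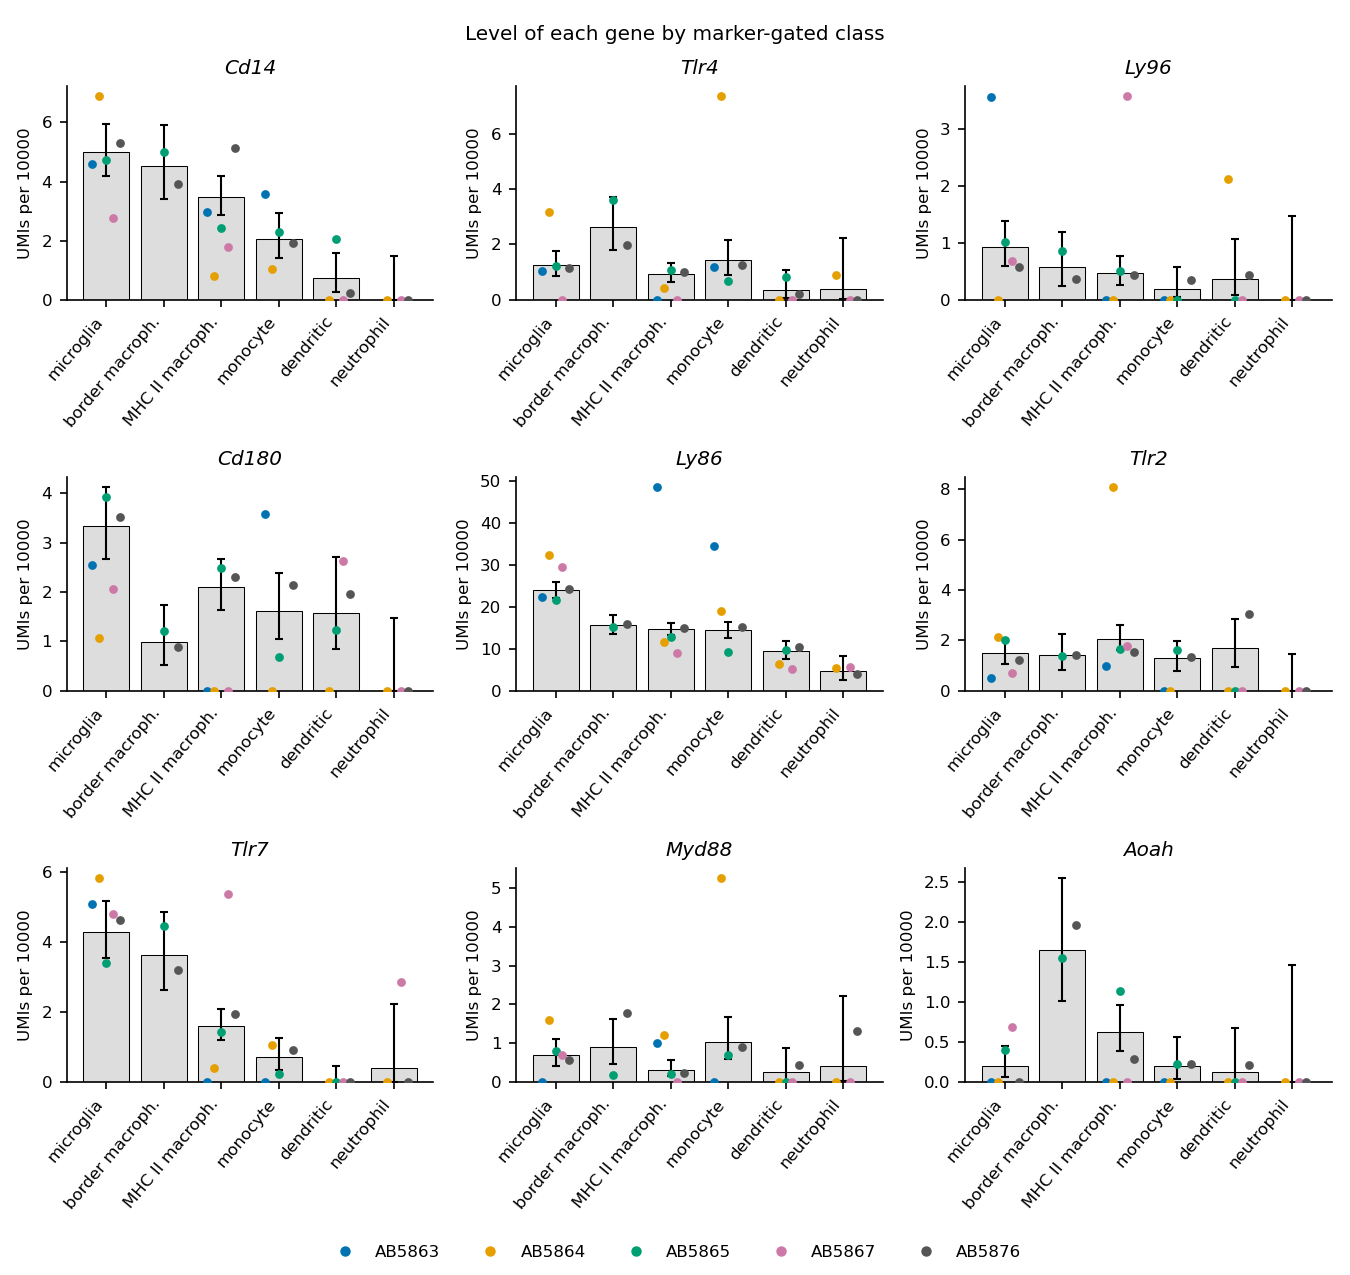
UMIs per 10000 of each of the 9 genes in 6 marker-gated classes. Grey bars are all cells of a class pooled with exact 95% Poisson intervals, and coloured points are the libraries with at least 5 cells of the class. Ly86 is highest in pooled microglia (24) and lowest in neutrophils (4.78), Tlr7 has no UMI in dendritic-gated cells, and Aoah is highest in border macrophages (1.65).

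Cd14, the LPS co-receptor (ENSMUSG00000051439.7, GRCm38 chromosome 18, 36725067 to 36726798, minus strand), was at 5 UMIs per 10000 in microglia (4.18 to 5.94), 4.54 in border macrophages and 3.48 in MHC II macrophages, the last of which was 2.21 without AB5876. It was at 2.06 in monocyte-gated cells (1.41 to 2.92) and 0.728 in dendritic-gated cells (0.267 to 1.58), and no UMI was seen in the 31 neutrophils. In microglia the 5 libraries gave 4.58, 6.89, 4.73, 2.75 and 5.31 in the order AB5863, AB5864, AB5865, AB5867 and AB5876. In dendritic-gated cells the 4 libraries with at least 5 such cells showed no UMI in AB5864 and AB5867. The level was 2.04 in AB5865 from 5 UMIs and 0.216 in AB5876 from 1. The measured ranges did not overlap, but the counts of 0 allow up to 6.39 in AB5864 and 7.89 in AB5867, so those libraries cannot show a separation. The share of all genes without such overlap was not computed, here or below. In monocyte-gated cells the 4 libraries gave 3.57, 1.05, 2.30 and 1.92 in AB5863, AB5864, AB5865 and AB5876, which overlaps microglia because AB5863 lies above the lowest microglial library. With 0 of 25126 UMIs in neutrophils, a count of 0 allows up to 1.19 per 10000. The pooled microglial level was 4.19 times that limit, a ratio that leaves out the counting error of the microglial level.

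Tlr4, the LPS receptor itself, and Ly96, its partner MD-2, were counted far less often. Tlr4 (GRCm38 chromosome 4, 66827584 to 66930284, plus strand) was at 2.64 UMIs per 10000 in border macrophages (1.81 to 3.73), 1.42 in monocyte-gated cells, 1.24 in microglia (0.849 to 1.75) and 0.940 in MHC II macrophages. In the 2 libraries with enough border macrophages, AB5865 gave 3.62 in border macrophages and 1.21 in microglia, and AB5876 gave 1.96 and 1.14. Both libraries were higher in border macrophages, by 3 and 1.73 times, and the pooled Tlr4 level of border macrophages was 1.75 without AB5865. Ly96 (chromosome 1, 16688051 to 16709611, plus strand) had 63 UMIs in all kept cells and was at 0.931 in microglia (0.596 to 1.38), 0.578 in border macrophages and 0.194 in monocyte-gated cells (0.0399 to 0.566). The ratio of Ly96 to Tlr4 UMIs was 0.750 in microglia (exact interval 0.423 to 1.31) and 0.219 in border macrophages (0.0815 to 0.505). Of the 24 Ly96 UMIs in microglia, 7 came from AB5863 and a single cell held 6, which the interval does not allow for. Only 4 of the 87 cells with a Tlr4 UMI also had a Ly96 UMI, and at these depths the absence of one of them in a cell was not informative.

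Cd180 and Ly86, which encode the partners RP105 and MD-1, both had their highest pooled level of the 6 classes in microglia. Ly86 (chromosome 13, 37345208 to 37419036, plus strand) was at 24 UMIs per 10000 in microglia (22.1 to 26.0), 15.6 in border macrophages (13.5 to 18.0), 14.7 in MHC II macrophages (13.4 to 16.1), 14.5 in monocyte-gated cells (12.6 to 16.5), 9.58 in dendritic-gated cells (7.59 to 11.9) and 4.78 in neutrophils (2.47 to 8.34). In microglia the 5 libraries lay between 21.7 and 32.4. In dendritic-gated cells they gave 6.39, 9.81, 5.26 and 10.4 in AB5864, AB5865, AB5867 and AB5876, from 3, 24, 2 and 48 UMIs. In neutrophils they gave 5.33, 5.72 and 3.89 in AB5864, AB5867 and AB5876, from 6, 2 and 3 UMIs. Neither range overlapped microglia in measured level, and the share of all genes without such overlap was not computed. In MHC II macrophages AB5863 stood at 48.5 from 15 cells and the other 4 libraries between 8.95 and 15.0, so these overlapped microglia through that library. In monocyte-gated cells the 4 libraries ran from 9.19 to 34.5, again with AB5863 the highest. Among cells of the microglia class the level was 23.1 in homeostatic-type and 24.7 in MHC II-high cells.

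Cd180 (chromosome 13, 102693558 to 102739629, plus strand) was at 3.33 in microglia (2.67 to 4.12), 2.10 in MHC II macrophages (1.63 to 2.67), 1.61 in monocyte-gated cells, 1.58 in dendritic-gated cells and 0.991 in border macrophages (0.512 to 1.73), with no UMI in neutrophils. The monocyte-gated level of Cd180 was 0.906 without AB5876. In the 2 libraries that have both, border macrophages gave 1.21 and microglia 3.92 in AB5865, and 0.892 and 3.51 in AB5876. The border values were 0.307 and 0.254 of the microglial ones. The groups did not overlap in these libraries, and the share of all genes without such overlap was not computed. Microglia of the other 3 libraries gave 2.55, 1.06 and 2.06 in AB5863, AB5864 and AB5867, of which AB5864 lies within the range of the border libraries. The 12 Cd180 UMIs of border macrophages came from 6 of 112 cells, and the 86 of microglia from 47 of 213. The ratio of Ly86 to Cd180 UMIs was 7.20 in microglia (5.74 to 9.13), 7.01 in MHC II macrophages (5.42 to 9.20) and 15.8 in border macrophages (8.81 to 31.0). Cd180 overlaps Mast4 on the opposite strand.

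Tlr2 (chromosome 3, 83836272 to 83841767, minus strand) had overlapping intervals in the classes other than neutrophils, at 2.07 UMIs per 10000 in MHC II macrophages (1.60 to 2.63), 1.70 in dendritic-gated cells (0.929 to 2.85), 1.51 in microglia (1.08 to 2.07), 1.4 in border macrophages and 1.29 in monocyte-gated cells. Neutrophils had no UMI (0 to 1.47), an interval that overlaps those of all these classes except MHC II macrophages. A single MHC II macrophage held 18 of the 66 UMIs of that class, and a single dendritic-gated cell held 11 of the 14 of its class. Without AB5876 no Tlr2 UMI was left in dendritic-gated cells. By library, MHC II macrophages gave 8.08 in AB5864 and between 0.990 and 1.79 in the other 4.

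Tlr7, the endosomal RNA sensor (chromosome X, 167304929 to 167330558, minus strand), had its highest pooled levels in microglia and border macrophages. It was at 4.30 in microglia (3.54 to 5.18) and 3.64 in border macrophages (2.64 to 4.88), intervals that overlap, then 1.60 in MHC II macrophages (1.19 to 2.10) and 0.71 in monocyte-gated cells (0.354 to 1.27). No Tlr7 UMI was found among 82432 UMIs of 38 dendritic-gated cells, which allows up to 0.364 per 10000. The pooled microglial level was 11.8 times that limit, a ratio that leaves out the counting error of the microglial level. The microglial libraries gave 5.09, 5.83, 3.42, 4.81 and 4.65 in AB5863, AB5864, AB5865, AB5867 and AB5876, and the monocyte-gated ones 0, 1.05, 0.230 and 0.901 in AB5863, AB5864, AB5865 and AB5876. Every microglial library was above every monocyte-gated and dendritic-gated one in measured level, and the share of all genes with such a gap was not computed. The counts of 0 in dendritic-gated cells allow up to 6.39 in AB5864 and 7.89 in AB5867. That in monocyte-gated cells of AB5863 allows up to 3.57, so these libraries cannot show a separation. In MHC II macrophages 4 libraries lay between 0 and 1.95 and AB5867 at 5.37, the last from 3 UMIs in 8 cells. The monocyte-gated level of Tlr7 was 0.453 without AB5876.

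Myd88, the shared adaptor (chromosome 9, 119335934 to 119341411, minus strand), had only 63 UMIs and was at 1.03 in monocyte-gated cells (0.590 to 1.68), 0.909 in border macrophages, 0.698 in microglia (0.414 to 1.1) and 0.313 in MHC II macrophages (0.150 to 0.576). The 2 border libraries disagreed in direction, with a border to microglia ratio of 0.214 in AB5865 and 3.14 in AB5876, and the pooled border level was 1.59 without AB5865 and 0.154 without AB5876. Myd88 overlaps Slc22a14 on the same strand and Acaa1a on the opposite one. Aoah (chromosome 13, 20794113 to 21036617, plus strand) was at 1.65 in border macrophages (1.01 to 2.55), 0.627 in MHC II macrophages (0.383 to 0.968) and 0.194 in microglia (0.0630 to 0.452). The Aoah level of MHC II macrophages was 0.224 without AB5865. In AB5865 it gave 1.55 in border macrophages from 9 UMIs and 0.403 in microglia from 4, and in AB5876 1.96 from 11 UMIs and 0 in microglia. The 20 border UMIs came from 15 cells, and border MHC II-low and MHC II-high cells gave 2.05 and 1.39.

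The first fit compared border macrophages with microglia in AB5865 and AB5876, using edgeR's quasi-likelihood test on summed UMIs, 1 sum for each class in each library, with library as the blocking factor. Of the 9 genes, Aoah rose (log2 fold change 3.19, SE 0.93, adjusted p = 0.0288) and Cd180 fell (-1.77, SE 0.49, adjusted p = 0.0174). Over all 5151 genes tested, 1.2% were higher and 1.24% lower at the same threshold. Tlr4 stood at 1.25 (SE 0.53) with an adjusted p of 0.285, and Ly86 at -0.51 (SE 0.19) with 0.169. The other 5 genes were within 0.34 of 0 on the log2 scale. These calls were fragile: with DESeq2, without the block, at minimums of 300 or 1000 UMIs per cell, with doubled gates and with edgeR's filterByExpr none of the 9 passed, although Aoah kept its direction in 11 of 11 alternatives, between 2.57 and 3.79, and Cd180 in 11 of 11, between -1.90 and -0.70. With Gm42418, Gm26917, mt-Rnr1 and mt-Rnr2 left out, genes that encode or overlap ribosomal RNA, Tlr4 passed instead of these (1.82, adjusted p = 0.0264). Without either library no test was possible.

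**Figure D2:**
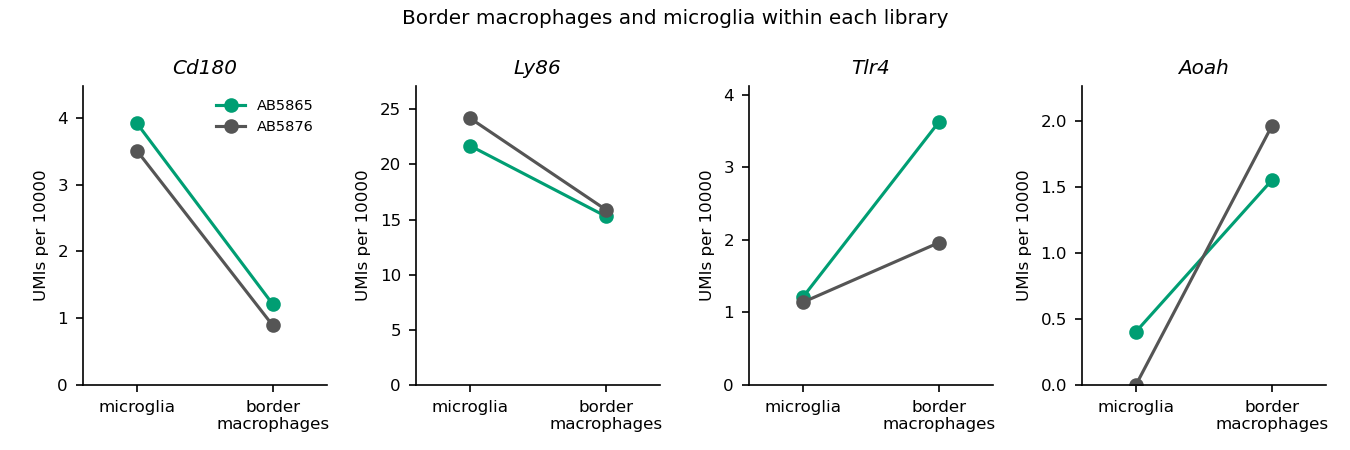
UMIs per 10000 of Cd180, Ly86, Tlr4 and Aoah in microglia and border macrophages of the 2 libraries that hold at least 5 cells of both; each line joins the classes of a library. Cd180 and Ly86 are lower and Tlr4 and Aoah higher in border macrophages in both libraries.

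The sequence upstream of the annotated start is shown for Cd180 and Aoah because these moved in opposite directions in that fit. RefSeq promoter entries (GRCm38.p6) were matched for 5 of the 9 genes. Each run below is the 250 bases before the start, on the plus strand, with the ETS family core GGAA, or TTCC on the other strand, in capitals. Cd180 spans chr13:102693297-102693546 and Aoah chr13:20793863-20794112.
Cd180: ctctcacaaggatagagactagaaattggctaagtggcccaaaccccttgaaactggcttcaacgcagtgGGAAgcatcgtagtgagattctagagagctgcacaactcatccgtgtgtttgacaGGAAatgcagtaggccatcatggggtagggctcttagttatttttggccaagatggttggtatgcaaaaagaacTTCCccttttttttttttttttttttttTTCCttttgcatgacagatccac
Aoah: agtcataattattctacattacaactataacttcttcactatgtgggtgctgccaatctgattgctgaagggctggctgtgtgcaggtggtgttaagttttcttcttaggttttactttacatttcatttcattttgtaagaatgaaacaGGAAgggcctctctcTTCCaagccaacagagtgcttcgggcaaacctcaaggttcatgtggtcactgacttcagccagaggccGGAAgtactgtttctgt
There were 4 cores before Cd180 and 3 before Aoah. Of 32851 promoter windows of this length, 33.4% held at least 4 and 54.7% at least 3, so these counts are common, and a match of letters is not a binding site.

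MHC II macrophages without border markers were compared with microglia in all 5 libraries. None of the 9 genes passed, against 0.375% of 7206 genes in either direction, while 2 had an unadjusted p under 0.05 and DESeq2 called 1, Tlr7. Tlr7 stood at -1.62 (SE 0.55, adjusted p = 0.217 from edgeR), lower in 4 of 5 libraries, and Ly86 stood at -0.74 (SE 0.30, adjusted p = 0.431), lower in 4 of 5. At a minimum of 300 UMIs per cell both passed in edgeR (adjusted p = 0.0243 and 0.0127). Ly86 reached 0.29 with doubled gates, the opposite direction.

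Dendritic-gated cells were compared with microglia in 4 libraries. Of 8 genes tested, 3 were lower and none higher, against 1.74% lower and 0.92% higher of 5109 genes. These were Tlr7 (adjusted p = 0.000227 from edgeR, its level set above against the limit for a count of 0), Ly86 (-1.89, SE 0.43, adjusted p = 0.00137) and Cd14 (-2.99, SE 0.86, adjusted p = 0.0231). Each had a lower measured level in 4 of 4 libraries, counts of 0 included. The median of all genes was -0.68, and it moved to -1.26 with RLE size factors and -0.46 with no scaling factors, under both of which the same 3 genes passed. The split of calls over all genes was 47 higher and 89 lower, 34 and 268 with RLE, and 114 and 87 with no scaling. Without AB5865, and with doubled gates, none of the 3 passed, without AB5876 only Ly86 did, and without the block only Tlr7 did. Cd14 did not pass with halved gates or without AB5864, and Ly86 did not pass without the ribosomal RNA-related genes (adjusted p = 0.0691).

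Monocyte-gated cells were compared with microglia in 4 libraries. Of 8 genes tested 1 fell, Tlr7 (-3.01, SE 0.73, adjusted p = 0.00497 from edgeR), lower in 4 of 4 libraries, against 1.17% lower of 5827 genes. Cd14 stood at -1.47 (SE 0.56, adjusted p = 0.208) and Ly86 at -0.82 (SE 0.35, adjusted p = 0.314). Both passed together with Tlr7 under DESeq2, RLE size factors and filterByExpr, and at minimums of 300 and 1000 UMIs. Tlr7 was not past the threshold without AB5865, without AB5876, without the block or with halved gates. The median of all genes was -0.37, -0.66 with RLE and -0.24 with no scaling, and the calls were 22 higher and 68 lower, 27 and 155 with RLE, and 80 and 79 with no scaling.

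Neutrophils were compared with microglia in 3 libraries. Of 7 genes tested 1 fell, Ly86 (-2.92, SE 0.69, adjusted p = 0.0026 from edgeR), lower in 3 of 3 libraries, against 1.34% lower of 2844 genes. The median of all genes was -2.15 and shifted to -1.42 with RLE size factors and -1.81 with no scaling, and the difference for Ly86 is to be read beside that median. The calls were 16 higher and 38 lower, 26 and 13 with RLE, and 22 and 29 with no scaling. Ly86 did not pass under DESeq2 or RLE, with halved or doubled gates, without those ribosomal RNA genes, or without any of AB5864, AB5867 and AB5876. The neutrophils had a median of 686 UMIs per cell and microglia 936.

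**Figure D3:**
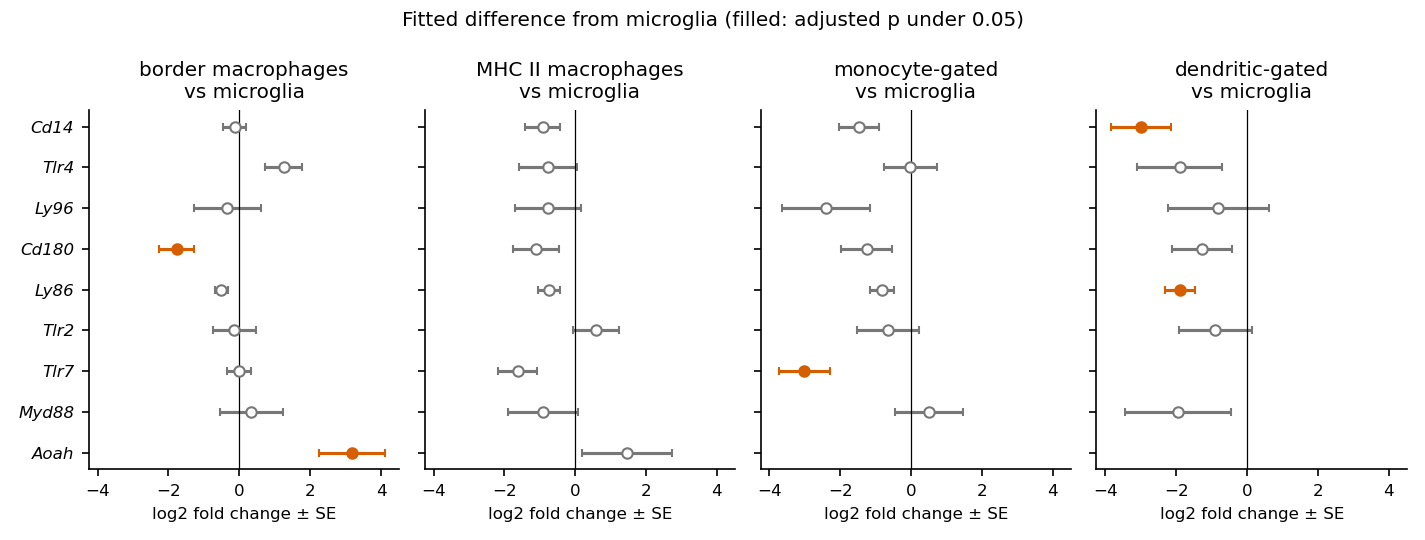
Log2 fold change (points) and standard error (bars) from edgeR for each gene in 4 comparisons with microglia; filled points have an adjusted p under 0.05. Genes with no UMI in the compared class (Tlr7 in dendritic-gated cells) or not tested are left out. Cd180 and Aoah pass in border macrophages, Tlr7 in monocyte-gated cells, and Cd14 and Ly86 in dendritic-gated cells.

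Within microglia, MHC II-high cells were compared with homeostatic-type cells in 4 libraries. No gene of the 8 tested passed in edgeR (0% of 4147 genes were called), none had an unadjusted p under 0.05 and DESeq2 called none of them. The planned comparison of activated with homeostatic-type microglia could not be made, since only 5 activated cells were found. Of 25 cells that pass the activation gate (genes such as Clec7a and Lpl), from microglia or from ungated cells, only 15 were in libraries with enough of them, 8 in AB5865 and 7 in AB5867, and these were compared with homeostatic-type microglia, a comparison chosen after the data were seen. AB5867 held 0 microglia of the activated class and 2 MHC II-high ones, so most of its 7 activation-marked cells were ungated. Cell class thus differs between the sides of this comparison. Cd14 was at 15.0 and 17.0 in activation-marked cells of AB5865 and AB5867 and 3.15 and 3.09 in homeostatic-type microglia. Over all 25 activation-marked cells it was at 11.6 (8.13 to 16.1), and at 4.38 in all homeostatic-type microglia. The fit gave 2.06 for Cd14 (SE 0.93, unadjusted p = 0.027, adjusted p = 0.995 from edgeR), and 0% of 1676 genes were called. Over the alternatives the Cd14 value ran from 0.45 to 2.32, and it passed in none. Border macrophages were also set against MHC II macrophages, added in the same way, with 1.91% of 5451 genes called and none of the 9. Tlr7 stood at 1.08 (SE 0.40, adjusted p = 0.21), Tlr4 at 1.27 (SE 0.51, adjusted p = 0.278) and Cd180 at -1.30 (SE 0.53, adjusted p = 0.311), DESeq2 called none, and these 3 had an unadjusted p under 0.05.

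Ly86 was found in 77.5% of microglia (exact binomial interval 71.3 to 82.9), 64.3% of border macrophages and 29.0% of neutrophils (14.2 to 48.0). Thinned to 500 UMIs per cell these shares were 58.4%, 45.8% and 21%. Tlr7 was found in 30.0% of microglia and 0 of 38 dendritic-gated cells, although the latter were the deeper cells, with a median of 1442 UMIs. Aoah was found in 13.4% of border macrophages (7.69 to 21.1) and 1.88% of microglia (0.514 to 4.74), at medians of 929 and 936 UMIs, and in 7.17% and 0.912% after thinning. Cd180 was found in 5.36% of border macrophages (1.99 to 11.3) and 22.1% of microglia (16.7 to 28.2). In the 20 empty wells, which held 320 UMIs in all, a single UMI of Cd180 was the only one from the 9 genes.

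**Figure D4:**
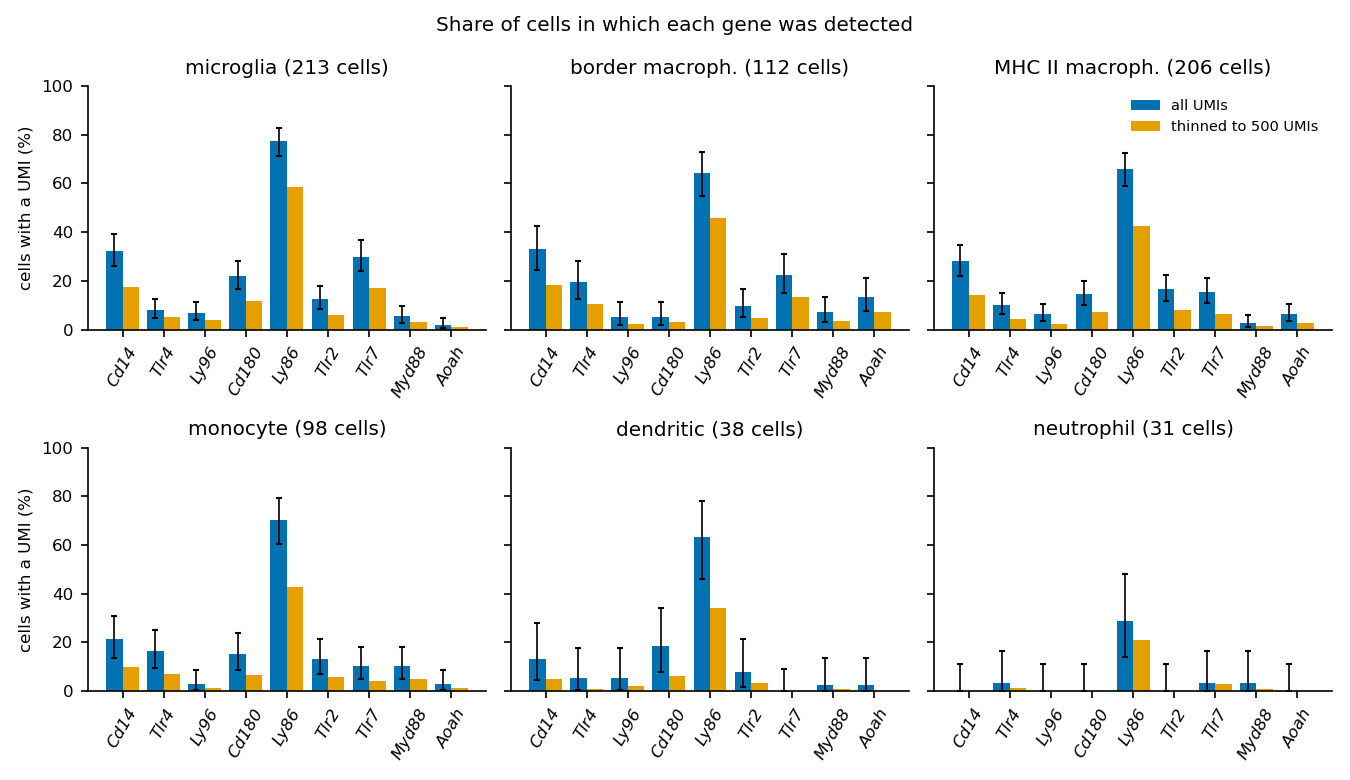
Percentage of cells with at least 1 UMI of each gene in 6 classes, from all UMIs (blue, with exact 95% binomial intervals) and as the expected share when each cell is thinned to 500 UMIs (orange). Ly86 is the most widely detected gene in every class, in 77.5% of microglia and 29.0% of neutrophils.

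The other genes of the pathway were taken as lists chosen for their role: 9 other TLRs, 22 adaptors and kinases, 9 chaperones and partners, 9 inhibitors, 10 transcription factors and 18 output genes. Border macrophages against microglia gave 1 higher of 7 chaperones and partners tested, Nrros, a leucine-rich repeat protein of macrophages (log2 fold change 1.62, SE 0.39, adjusted p = 0.00216 from edgeR). Among 9 transcription factors tested 2 were higher, Jun (0.93, adjusted p = 0.0288) and Fos (0.81, adjusted p = 0.042), which are also immediate early genes. These counts stand beside 1.2% higher and 1.24% lower of 5151 genes. None of the 6 other TLRs, 10 adaptors and kinases, 5 inhibitors and 7 output genes tested passed there. The median log2 fold change was 0.54 over the chaperones and partners, 0.31 over the transcription factors, 0.04 over the other TLRs and -0.70 over the adaptors and kinases, beside -0.12 over all genes tested. In dendritic-gated cells Jun was lower (-2.23, adjusted p = 0.0347), while the chemokine gene Ccl5 (2.28, adjusted p = 0.0225) and Il12b (adjusted p = 0.0103) were higher. All 24 Il12b UMIs of that class came from 1 cell, and microglia had none. Over all genes 0.92% were higher and 1.74% lower there. In neutrophils Jun was lower (adjusted p = 0.0473 from edgeR), at 0.398 UMIs per 10000 from 1 UMI against 5.43 in microglia, beside 1.34% lower over all genes. These calls were then read, after the data were seen, under the alternatives used for the 9 genes. In border macrophages Nrros passed in 5 of 11, Jun in 3 of 11 and Fos in 1 of 11, with highest adjusted p-values of 0.853, 0.998 and 0.998. Nrros and Fos kept their direction in all 11, and Jun reversed in 1. In dendritic-gated cells Il12b passed in 7 of 10, Jun in 6 of 15 and Ccl5 in 4 of 15, and in neutrophils Jun passed in 1 of 12, each in 1 direction throughout. No listed gene passed in MHC II macrophages, monocyte-gated cells or MHC II-high microglia. Among the other TLRs, Tlr9 was at 1.90 UMIs per 10000 in microglia and 2.32 in MHC II macrophages, and Tlr13 at 2.25 and 0.689.

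The genes whose level over 8 gated classes was most like that of each member were sought among 3274 genes, as a description over pooled libraries that share depth and class sizes. Cd14 was closest to Il10ra, C1qa and C3ar1 (r = 0.99, 0.99 and 0.98). Tlr7 was closest to Itm2b (0.99), Ly86 to Kdm3b, Tmem173 and Ctss (0.99 each), Cd180 to F11r (0.99) and Aoah to Zfp106 (0.97), Iigp1 (0.96) and C4b (0.96). Tlr2 was closest to Gm20430 (0.98), Tlr4 to Sept2 (0.97), Ly96 to St6galnac4 (0.97) and Myd88 to Ogfrl1 (0.96). These are the highest of 3274 values over 8 points, and the r that such a search gives by itself was not computed. Some of these genes had few UMIs, such as Aoah with 56 and Kdm3b with 66.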

How the data were processed

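MARS-seq single-cell profiles of sorted brain immune cells, in 5 libraries of 384 wells, were analysed. The values deposited by the authors are unnormalized UMI counts, a row per gene and a column per well. Per the submitters' processing notes, bcl2fastq 2.15.0.4 and the mouse build mm10 were used, and no aligner is named in these sources. Doublets were left out by the authors at the sort, and no doublet caller was run. Cells with at least 500 non-ERCC UMIs and a single cell per well were kept (between 68 and 314 per library), and classes were set by summed marker levels. Levels are UMIs per 10000 of the pooled class with exact 95% Poisson intervals, and a count of 0 allows up to 3 counts. UMIs were summed per library and class (sums of at least 5 cells), and genes with at least 10 UMIs were tested, without gate markers, by edgeR 4.0.16 (quasi-likelihood, TMM, robust, library as block) in R 4.3.3, with Benjamini-Hochberg adjustment and a threshold of 0.05. DESeq2 1.42.0, other scaling, filters, gates, UMI minimums and left-out libraries were the alternatives. The members and the lists were chosen with earlier results of these data known. All 9 members are named, listed pathway genes are named where they passed (at most 4 per list and comparison), and likeness is Pearson's r of log2(UMIs per 10000 + 0.5). Gene positions are from GENCODE on GRCm38. Tlr9 and Tlr13 were chosen after their values were seen. Classes were formed from the same cells that were compared, which the p-values do not allow for.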

Additional observations from a re-analysis of the deposited data

Results flagged for a closer look

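Ly86 was counted at 0.53 UMIs per well in the 1075 wells that held a cell but fewer than 500 UMIs, which enter no comparison, against a limit of 0.15 per well that a count of 0 allows in the 20 empty wells. A library that stood far from the others of its class was seen in 10 of 40 groups of 4 or 5 libraries tested, where chance gives about 1 in 20 for normally distributed values of equal precision. The rate for counts this low was not computed. In MHC II macrophages these were Ly86 in AB5863 (48.5 UMIs per 10000, the others 8.95 to 15.0), Tlr2 in AB5864 (8.08, the others 0.99 to 1.79), Ly96 in AB5867 (3.58, from 2 UMIs) and Aoah in AB5865 (1.14, the others 0 to 0.289). In microglia they were Ly96 over all microglia in AB5863 (3.56), Myd88 and Tlr4 in homeostatic-type cells of AB5864 (3.43 from 3 UMIs and 4.58 from 4) and Tlr7 in MHC II-high cells of AB5864 (9.89, the others 2.92 to 3.54). The last 2 were Tlr2 in dendritic-gated cells of AB5876 (3.03) and Tlr4 in monocyte-gated cells of AB5864 (7.36 from 7 UMIs, the others 0.689 to 1.24). Several of these values rest on few UMIs.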

How the results depend on the processing

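The number of the 9 genes past the threshold moved in at least 1 comparison under most settings, and the cause was not tested. It stayed at 0 under every setting for MHC II-high and for activation-marked cells against homeostatic-type microglia. In border macrophages against microglia the 2 calls became 0 with doubled gates, minimums of 1000 and 300 UMIs, DESeq2, filterByExpr and no replicate block, and 1 with halved gates, no filter and the ribosomal RNA-related genes left out; no library could be left out with a test. In MHC II macrophages the 0 calls became 2 at 300 UMIs and 1 with DESeq2 and filterByExpr. In dendritic-gated cells the 3 calls became 0 with doubled gates, 1 with no replicate block, and 2 with halved gates and without the ribosomal RNA-related genes, and ran from 0 to 3 with a library left out. In monocyte-gated cells the 1 call became 0 with halved gates and no replicate block and 3 with 1000 or 300 UMIs, DESeq2, RLE and filterByExpr, and ran from 0 to 1 with a library left out. In neutrophils the 1 call became 0 with halved or doubled gates, without the ribosomal RNA-related genes, and with DESeq2 and RLE, 2 with no replicate block, and 0 with any library left out. Border against MHC II macrophages went from 0 to 1 with filterByExpr. Of 46 levels with at least 10 UMIs, 30 stayed within their interval with doubled gates, and at least 37 under each other setting. Ly86 changed direction with doubled gates in border macrophages (0.06) and MHC II macrophages (0.29), and Jun at 300 UMIs in border macrophages (-0.61). The block is the library, in which both classes lie.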
